A study of Bos taurus with 3 samples.

Results

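Lymphocytes that carried transcripts of CTSW but none of the bovine TRDC homolog were examined in single-cell RNA-seq libraries of the rumen of newborn dairy calves. Members were chosen by the measured UMIs of single genes, so the values of those genes describe the choice and are not results. A barcode was counted as a member when it had at least 1 UMI (a unique molecular identifier, which marks 1 captured transcript) of CTSW, at least 1 UMI of CD3E, PTPRC or CD52, and no UMI of ENSBTAG00000055197, the gene used as the homolog of TRDC. Before that, barcodes had to hold 500 to 4000 genes, at most 50000 UMIs and at most 40% of UMIs in the 13 mitochondrial coding genes. Barcodes with 10 or more UMIs of KRT5, KRT14 and KRT15 per 10000, the keratins of the epithelium, were set aside, as were barcodes with 30 or more UMIs of BOLA-DRA per 10000, a class II gene that marks antigen-presenting cells. Of 31228 barcodes, 26020 passed the limits on genes, UMIs and mitochondrial share, and 82 were members. The label of the group follows from these genes alone, and the absence of a UMI in a shallow cell is not the absence of the transcript.

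The study set the rumen wall of newborn calves beside that of adult cattle. The 3 libraries used here came from 3 untreated calves taken at 1 day of age, with 1 library per calf. Adult cattle, for which alone the text of the study names a breed, Holstein, were not analysed here. The deposited matrices held 7529, 12043 and 11656 barcodes and 82263092, 89803289 and 106145091 UMIs for calves 1, 2 and 3. The tissue had been stripped of its outer muscle and dissociated with enzymes, without sorting of lymphocytes.

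CTSW encodes cathepsin W, a cysteine protease stored in cytotoxic lymphocytes, which are mainly natural killer (NK) cells and CD8 T cells. T cells carry an antigen receptor bound to the CD3 proteins, of which CD3E encodes the epsilon chain, and signal through adaptors such as ZAP70 and LAT. NK cells lack that receptor and use activating receptors that couple to small adaptors such as FCER1G, CD247 and HCST. TRDC encodes the constant region of the delta chain of the receptor of γδ T cells, a T cell class that is abundant in young ruminants. Cytotoxic lymphocytes of either class kill with perforin and granzymes and release chemokines such as CCL5, CCL3 and CCL4.

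The members were spread unevenly over the calves. Calf 1 had 0 members among 4886 kept barcodes, which allows a share of up to 0.0755% by the exact 95% interval. Calf 2 had 11 among 10654, or 0.103% (exact 95% interval 0.0516 to 0.185). Calf 3 had 71 among 10480, or 0.677% (0.529 to 0.854). The mean share was 0.260% ± 0.365 (SD, n = 3), so the spread between calves exceeded the mean, and 86.6% of all members came from calf 3. Within the members, CD3E split the cells into 61 with a CD3E UMI (CD3E+ members, 11 in calf 2 and 50 in calf 3) and 21 without (CD3E- members, all in calf 3). The intervals here and below cover counting error only.

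**Figure D1:**
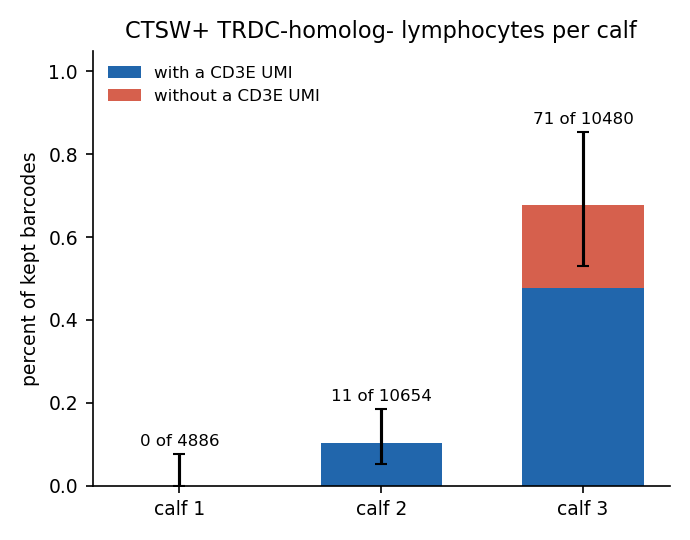
Share of kept barcodes (y axis, percent) that were CTSW+ lymphocytes without the TRDC homolog in each calf (x axis). Bars stack cells with a CD3E UMI (blue) and without (red), error bars give the exact 95% interval of the total, and the totals were 0 of 4886, 11 of 10654 and 71 of 10480.

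The cells compared with the members passed the same limits. CTSW- CD3E+ cells had a CD3E UMI and no CTSW UMI, with the TRDC homolog not restricted, and numbered 0, 1 and 89 in calves 1, 2 and 3. CTSW+ cells with the TRDC homolog numbered 1, 4 and 32. Only calf 3 held CD3E+ members, CD3E- members and CTSW- CD3E+ cells in useful number, so no test between these 3 groups could be run. The CTSW+ cells with the TRDC homolog were not tested against any group. Every ratio below compares summed cells of 1 animal with an exact interval for counting error. Levels are given as UMIs of a gene per 10000 UMIs of the summed cells. A gene is called higher or lower below when its level differed at least 2-fold and the pair of groups held at least 20 UMIs of it, which is a description of these libraries and not a test.

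Member cells were small in RNA content beside the rest of the tissue. CD3E+ members had a median of 2821 UMIs in calf 2 and 2550 in calf 3, and CD3E- members had 2586. CTSW- CD3E+ cells of calf 3 had 3129 and CTSW+ cells with the TRDC homolog had 2895.5, whereas keratin-high barcodes of calf 3 had 7974 and BOLA-DRA-high barcodes 6666. The lymphocyte groups were therefore close in depth and the epithelial and antigen-presenting barcodes were deeper. CD52, which encodes a surface glycoprotein of lymphocytes, was seen in 82 of 82 members. PTPRC, the CD45 phosphatase, was seen in 5 of 11 CD3E+ members of calf 2, in 39 of 50 of calf 3 and in 16 of 21 CD3E- members.

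The CTSW rule rested on few molecules per cell. The median member held 3 CTSW UMIs, 21 members held 1, and the highest held 16. A CTSW UMI was found in 67 of 23625 keratin-high barcodes (0.284%, interval 0.220 to 0.360) and in 0 of 408 BOLA-DRA-high barcodes. Of those 67 barcodes, 57 also had CD3E, PTPRC or CD52, so CTSW without any of these lymphocyte genes was found in 10 keratin-high barcodes (0.0423%, 0.0203 to 0.0778). Among the 57 were 33 (1, 6 and 26 per calf) that met every condition for members but the keratin limit, 21 of them with CD3E and 22 with a keratin sum under 30 per 10000. The highest keratin sum of a member was 9.72 per 10000 and the lowest of a barcode just outside was 10.8. No barcode failed the BOLA-DRA limit alone, and the highest BOLA-DRA level of a member was 4.16 per 10000. None of the members was marked by a score against simulated doublets, and none of the CTSW- CD3E+ cells was. Of the 33 barcodes that failed only the keratin limit, 7 were marked, all with a keratin sum of 30 or more. As the keratin and BOLA-DRA limits had been applied first, the score is not an independent check of the members. No member shared its barcode sequence with another library among the 21, 29 and 37 barcodes that a pair of libraries had in common.

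The members of calves 2 and 3 were compared before any comparison of cell groups. CCL5, a chemokine of activated cytotoxic lymphocytes, had a UMI in 0 of 11 CD3E+ members of calf 2 (0 to 28.5%) and in 36 of 50 of calf 3 (72.0%, 57.5 to 83.8). KLRK1, which encodes the activating receptor NKG2D, was found in 0 of 11 (0 to 28.5%) and in 13 of 50 (26.0%, 14.6 to 40.3), so the intervals were apart for CCL5 and overlapped for KLRK1. HSPA1A, an inducible heat-shock gene, had a level of 1.96 per 10000 in the CD3E+ members of calf 2 and of 21.3 in those of calf 3. HSPA1A was about as high in the other groups of calf 3. It stood at 23.2 in CD3E- members, 19.7 in CTSW- CD3E+ cells and 20.6 in CTSW+ cells with the TRDC homolog. The groups of calf 3 were thus close in this gene, and of calf 2 only the CD3E+ members are given. The part of calf or of library handling in these values was not tested, and values of the 2 calves are kept apart below.

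The study had named CCL5, NKG7, KLRK1 and CD8A, with CTSW and CD3E, for a cluster it called natural killer T cells. That cluster was made from newborn and adult cells of the same study, so the names were not independent of these data. They were read first as a description of the label and not as a check of it. NKG7, a granule membrane protein of cytotoxic cells, was found in 4 of 11 CD3E+ members of calf 2, in 25 of 50 CD3E+ members of calf 3 (50.0%) and in 11 of 21 CD3E- members (52.4%). KLRK1 was found in 9 of 21 CD3E- members (42.9%) and CCL5 in 18 of 21 (85.7%, 63.7 to 97.0). CD8A, the alpha chain of the CD8 coreceptor, was found in 3 of 11, 20 of 50 and 5 of 21 cells in the same order. Summed, the 4 markers reached 2.21 per 10000 in CD3E+ members of calf 2 (1.01 to 4.2), 17.8 in those of calf 3 (15.8 to 20.0) and 30.9 in CD3E- members (26.6 to 35.7), against 4.05 in CTSW- CD3E+ cells (3.39 to 4.79). The summed level of calf 2 was thus nearer to that of CTSW- CD3E+ cells of calf 3 than to that of the members of calf 3, and no UMI of CCL5 or KLRK1 was among its 9 marker UMIs.

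Some of these markers were also found in barcodes of other cell types. Whether such UMIs were background or transcripts of those cells was not tested. CCL5 had a UMI in 13.1% of BOLA-DRA-high barcodes of calf 3 and 0.748% of keratin-high ones, and NKG7 in 27.8% and 0.759%. KLRK1 was found in 0.267% of BOLA-DRA-high barcodes and CD8A in 0 of 374 (0 to 0.982%). The BOLA-DRA-high barcodes were deeper at the median, so after thinning every cell to 1000 UMIs the CCL5 share was 56.0% in CD3E+ members, 66.7% in CD3E- members and 4.02% in BOLA-DRA-high barcodes of calf 3. The NKG7 share after thinning was 26.0%, 33.3% and 9.38%. Both genes thus stood above the share in antigen-presenting barcodes in members of calf 3. Before thinning, NKG7 in calf 2 was found in 4 of 11 members and in 21 of 32 BOLA-DRA-high barcodes. Those barcodes were deeper, with a median of 6493.5 UMIs against 2821, so these shares cannot be compared directly.

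**Figure D2:**
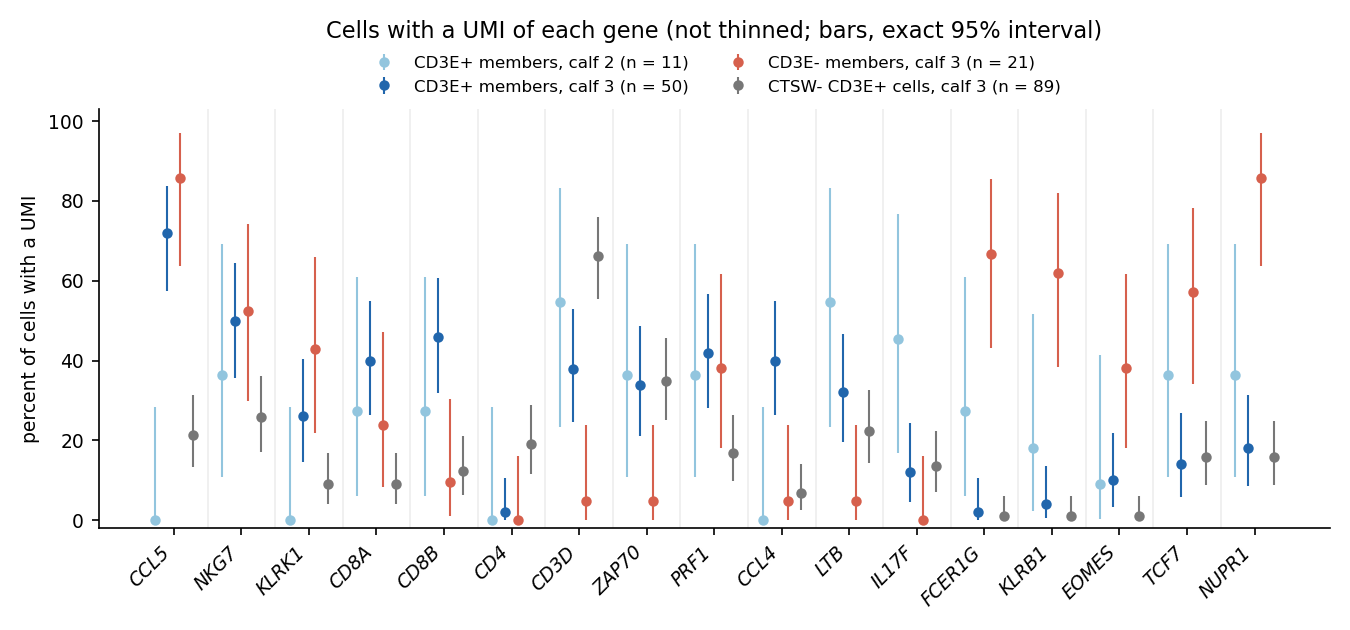
Percent of cells with at least 1 UMI of each gene (y axis; genes on the x axis; points with exact 95% intervals; cells not thinned) in CD3E+ members of calf 2 and calf 3, CD3E- members of calf 3 and CTSW- CD3E+ cells of calf 3. CCL5 was found in 72.0% and 85.7% of the members of calf 3 and 0 of 11 in calf 2, and FCER1G, KLRB1, EOMES, TCF7 and NUPR1 had their highest shares in CD3E- members.

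Among members of calf 3, cells with and without a CD3E UMI differed across T cell and NK cell genes. In the comparison of CD3E+ with CD3E- members, 1254 genes had at least 20 UMIs, of which 241 (19.2%) were at least 2-fold higher and 61 (4.86%) at least 2-fold lower in CD3E+ members. The CD3E+ sum held more UMIs (159854 against 59848), so genes reached 20 UMIs mainly through it, and the median gene stood at a log2 ratio of 0.18. Of the called genes 79.8% were higher in CD3E+ members, against 33.2% with no minimum of UMIs. Leaving out, for each gene, the cell with most of its UMIs ended many calls, and 172 genes (13.7%) stayed higher and 33 (2.63%) lower.

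Some genes of the T cell receptor complex and its signalling were higher in CD3E+ members. Of the receptor genes, the rule had used CD3E and the TRDC homolog and no other. CD3D, the delta chain of CD3, was found in 6 of 11 CD3E+ members of calf 2, in 19 of 50 of calf 3 (38.0%) and in 1 of 21 CD3E- members. Its level in calf 3 was 2.00 against 0.501 per 10000, a ratio of 3.99 (1.25 to 20.4). Its log2 ratio of 2.00 was 0.92, under the 2-fold limit, with cells of a keratin sum under 30 per 10000 admitted, and all 3 CD3D UMIs of the CD3E- members lay in 1 cell. ZAP70, the kinase recruited to the receptor, was found in 17 of 50 against 1 of 21 cells (5.24-fold higher, 1.32 to 45.4), and LAT, its adaptor, in 14 of 50 against 2 of 21. CD247, the zeta chain, which T cells and NK cells both use, was found in 18 of 50 and 8 of 21 cells at levels of 1.38 and 1.34. At least 1 of CD3D, CD3G, ZAP70 and LAT was found in 32 of 50 CD3E+ members (64.0%), 3 of 21 CD3E- members (14.3%) and 77 of 89 CTSW- CD3E+ cells (86.5%). Of the T cell signalling list, 5 of 16 measured genes reached 20 UMIs, and 2 (ZAP70 and SIT1) were higher and none lower in CD3E+ members, beside 19.2% higher over all genes. The SIT1 log2 ratio of 1.17 was 0.90 without 1 cell, which left ZAP70 alone. The 1 of 5 signalling genes left is near the 13.7% that stayed higher over all genes. LCK, CD2 and CD96 had log2 ratios of 0.58, 0.90 and -0.18. Of the receptor complex, CD3D was higher and CD247 was not among 2 genes with 20 UMIs of 4 measured. The constant regions of the T cell receptor chains other than the TRDC homolog could not be matched by name.

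The CD8 coreceptor genes followed CD3E in part. CD8B, the beta chain found mainly on αβ T cells, was present in 3 of 11 CD3E+ members of calf 2, 23 of 50 of calf 3 (46.0%, 31.8 to 60.7) and 2 of 21 CD3E- members (9.52%). Its level was 2.69 against 0.334 per 10000 in calf 3, 8.05-fold higher in CD3E+ members (2.10 to 68.6), and the log2 ratio of 3.01 was 2.32 with a keratin sum under 30 admitted. CD8A, which NK cells of cattle can also carry, was at 1.75 against 0.835, a ratio of 2.10 with an interval that spans 1 (0.799 to 6.95). A UMI of either chain was found in 34 of 50 CD3E+ members (68.0%, 53.3 to 80.5) and 6 of 21 CD3E- members (28.6%), and both chains together in 9 of 50 and 1 of 21. CD4, the coreceptor of helper T cells, was found in 1 of 50 and 0 of 21. ICOS, a costimulatory receptor of T cells, was found in 13 of 50 and 1 of 21 (9.36-fold, 1.53 to 384). Of the 4 coreceptor and helper genes that reached 20 UMIs of 8 measured, 3 (CD8A, CD8B and ICOS) were higher in CD3E+ members and none was lower, beside 19.2% higher and 4.86% lower over all genes. The log2 ratio of CD8A was 0.96 without 1 cell against 1.07 with it, which left 2 of 4 higher, beside 13.7% over all genes.

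Some genes of NK cells were higher in CD3E- members, and others of the list were shared. FCER1G, the gamma adaptor chain of activating and Fc receptors, was found in 14 of 21 CD3E- members (66.7%, 43.0 to 85.4) and 1 of 50 CD3E+ members of calf 3, at 6.35 against 0.125 per 10000. It was 50.7-fold lower in CD3E+ members, with an interval of 13.1 to 434 that rests on 2 UMIs in the CD3E+ sum. KLRB1, a lectin-like receptor of NK cells and some T cells, was found in 13 of 21 (61.9%, 38.4 to 81.9) and 2 of 50, and was 30.7-fold lower in CD3E+ members (7.59 to 269). EOMES, a T-box transcription factor of NK cells and memory T cells, was found in 8 of 21 and 5 of 50, 6.23-fold lower in CD3E+ members (2.25 to 19.8). NCR1, which encodes the NK receptor NKp46, was found in 4 of 21 and 2 of 50, and KLRF1 in 3 of 21 and 0 of 50. Of the NK receptor and adaptor list, 7 of 21 measured genes reached 20 UMIs, of which KLRK1, KLRB1 and FCER1G were lower and CRTAM was higher in CD3E+ members, beside 4.86% lower and 19.2% higher over all genes. NKG7, HCST and IL2RB, the beta chain of the interleukin 2 receptor, had log2 ratios of -0.30, -0.86 and -0.73 and were not called. Without 1 cell the KLRK1 log2 ratio of -1.12 was -0.69 and its call ended. In cells of at most 5000 UMIs the FCER1G log2 ratio of -5.67 was -4.98. T cell signalling genes were not absent from CD3E- members, since at least 1 of the 16 was found in 18 of 21 of them and in 46 of 50 CD3E+ members, at summed levels of 10.5 per 10000 (8.09 to 13.5) and 16.95 (14.99 to 19.1).

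The NK cell genes overlapped within cells. FCER1G or KLRB1 was found in 16 of 21 CD3E- members (76.2%) and 3 of 50 CD3E+ members (6%), and both together in 11 of 21 and 0 of 50. At least 1 of FCER1G, KLRB1, EOMES, NCR1 and KLRF1 was found in 20 of 21 CD3E- members (95.2%, 76.2 to 99.9), 9 of 50 CD3E+ members (18%) and 3 of 89 CTSW- CD3E+ cells (3.37%). Those genes are a selection. Of the whole NK receptor and adaptor list, at least 1 gene was found in 20 of 21, 43 of 50 and 62 of 89 cells in the same order. FCER1G was also present in 89.8% of BOLA-DRA-high barcodes of calf 3, whereas KLRB1 was present in 0 of 374, so the KLRB1 UMIs had no match in that compartment. In calf 2, which had no CD3E- members, 5 of 11 CD3E+ members had FCER1G or KLRB1 (45.45%, 16.75 to 76.62). That interval lay apart from that of CD3E+ members of calf 3 (1.255 to 16.55) and overlapped that of CD3E- members (52.83 to 91.78). A gene of the selection FCER1G, KLRB1, EOMES, NCR1 and KLRF1 was found in 6 of 11 (54.55%, 23.38 to 83.25). The low shares in CD3E+ members were thus seen in calf 3 and not in calf 2.

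Several further genes had most of their member UMIs in CD3E- cells. NUPR1, a small stress-induced chromatin protein, was found in 18 of 21 CD3E- members (85.7%) and 9 of 50 CD3E+ members (18%), at 20.9 against 1.75 per 10000, 11.9-fold lower in CD3E+ members (7.87 to 18.7). Its log2 ratio of -3.58 was -2.90 in cells of at most 5000 UMIs. The NUPR1 share in keratin-high barcodes of calf 3 was 7.08%, and in CD3E+ members of calf 2 it was 4 of 11. TCF7, the transcription factor TCF-1 of naive and progenitor lymphocytes, was found in 12 of 21 (57.1%) and 7 of 50 (14.0%), 4.13-fold lower in CD3E+ members (1.82 to 9.75). XCL1, a chemokine that attracts cross-presenting dendritic cells, was found in 5 of 21 and 1 of 50. The unnamed gene ENSBTAG00000009943 had 68 UMIs in 12 CD3E- members and 20 UMIs in 5 CD3E+ members, a log2 ratio of -3.18. CXCL3 met the same 2-fold limit, but its 27 UMIs came from 1 CD3E- member.

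**Figure D3:**
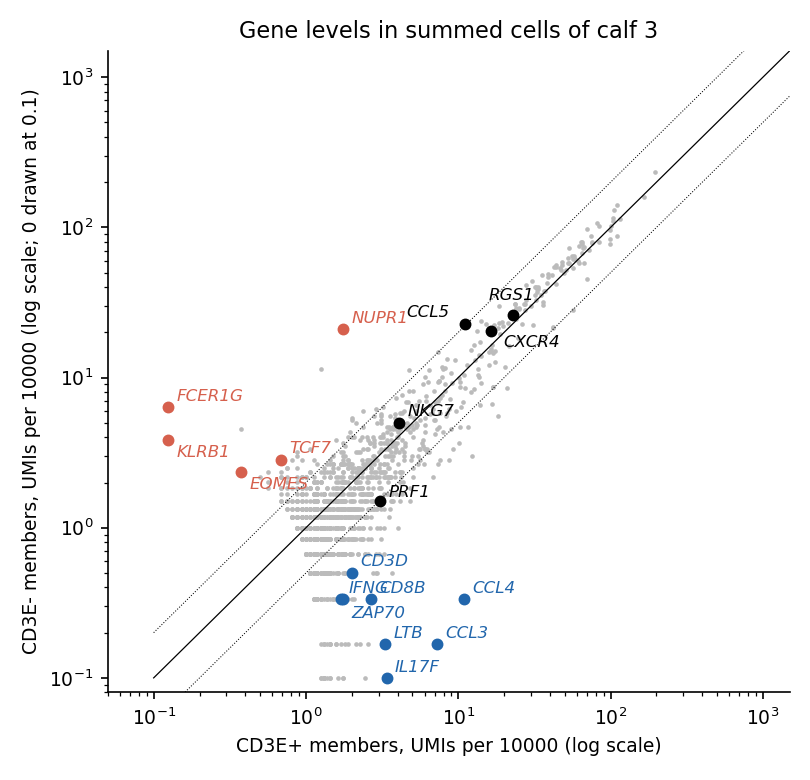
Level of each gene with at least 20 UMIs in the summed CD3E+ members (x axis) and CD3E- members (y axis) of calf 3, in UMIs per 10000 on log axes, with equality (solid) and 2-fold (dotted) lines and levels of 0 drawn at 0.1. FCER1G, KLRB1, EOMES, TCF7 and NUPR1 (red) lie above the 2-fold band, the cytokine and T cell genes in blue lie below it, and CCL5, NKG7, PRF1, RGS1 and CXCR4 (black) lie in or near it.

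The effector genes fell into those that both kinds of member carried and those mostly in CD3E+ members. CCL5 had levels of 11 (9.44 to 12.8) in CD3E+ members and 22.9 (19.2 to 27.1) in CD3E- members of calf 3, 2.08-fold lower in CD3E+ members (1.65 to 2.61). That call was close to the limit, since the log2 ratio of -1.06 was -0.86 with cells thinned to 1000 UMIs or with median-of-ratios scaling, -0.88 in cells of at most 5000 UMIs and -0.79 without 1 cell. NKG7 stood at 4.07 and 5.01, and KLRK1 at 1.00 and 2.17 with a ratio whose interval spans 1. PRF1, which encodes perforin, was found in 21 of 50 (42.0%) and 8 of 21 (38.1%) members and in 4 of 11 of calf 2, and its ratio of 2.04 in calf 3 has an interval of 0.991 to 4.72, with a log2 ratio of 0.86 without 1 cell. HCST, the adaptor that couples NKG2D, was found in 21 of 50 and 10 of 21. These genes were thus shared by both kinds of member, with shares that overlapped within their intervals.

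CCL4 and CCL3, chemokines that recruit further leukocytes, were found in 20 and 10 of 50 CD3E+ members of calf 3, in 1 CD3E- member each, and in 0 of 11 members of calf 2. The CCL4 level was 32.8-fold higher in CD3E+ members (8.93 to 273) and the CCL3 log2 ratio was 5.44. A single CD3E+ cell held 86 of the 116 CCL3 UMIs (74.1%) and 89 of the 175 CCL4 UMIs (50.9%), and without the top cell the log2 ratios were 3.52 and 4.04. With cells of a keratin sum under 30 per 10000 admitted, they were 1.71 for CCL3 and 1.42 for CCL4. CCL4 was also found in 46.3% of BOLA-DRA-high and 0.681% of keratin-high barcodes of calf 3. Of the 21 CD3E+ members with CCL3 or CCL4, 16 also had CD8A or CD8B.

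LTB, a membrane-bound cytokine of the tumour necrosis factor family, was found in 6 of 11 CD3E+ members of calf 2, 16 of 50 of calf 3 and 1 of 21 CD3E- members, 19.8-fold higher in CD3E+ members (3.41 to 798). Its log2 ratio of 4.31 was 2.54 with a keratin sum under 30 admitted. IFNG, the interferon of cytotoxic and type 1 helper cells, was found in 11 of 50 and 1 of 21 (5.05-fold, 1.27 to 43.9). TNF was found in 13 of 50 and 6 of 21. Of the lymphocyte cytokines and chemokines, 7 of 11 measured genes reached 20 UMIs, of which CCL3, CCL4, IFNG and LTB were higher and CCL5 was lower in CD3E+ members, beside 19.2% higher and 4.86% lower over all genes, and the 4 higher calls held without the cell with most UMIs of the gene whereas that of CCL5 did not. Of the granule list, 5 of 15 measured genes reached 20 UMIs, and PRF1, GNLY and 1 of the GZMB genes were higher, beside 19.2% higher and 4.86% lower over all genes. GNLY, which encodes granulysin, had 18 of its 27 UMIs in 1 of 7 cells, and without the cell with most UMIs of each gene it alone of the 3 stayed past 2-fold, at 1.82 against 3.34. The 1 of 5 granule genes left is near the 13.7% that stayed higher over all genes. The files hold more than 1 gene named GZMB, and reads may be split between such near copies, so their values are uncertain. A granzyme or GNLY was found in 21 of 50 CD3E+ members of calf 3 (42.0%, 28.2 to 56.8) and 3 of 21 CD3E- members (14.3%, 3.05 to 36.3). In calf 2 it was found in 0 of 11 CD3E+ members (0 to 28.5%).

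The transcription factors did not move as a block. Of 7 genes with 20 UMIs among 19 measured, ID2, GATA3 and ZBTB16 were higher and EOMES and TCF7 lower in CD3E+ members, beside 19.2% higher and 4.86% lower over all genes, and GATA3 was at 0.72 without 1 cell against 1.17 with it. ID2, an inhibitor of E proteins in innate and effector lymphocytes, stood at 16.8 against 6.68 per 10000 (2.51-fold, 1.79 to 3.59). ZBTB16, the factor PLZF of innate-like T cells, was found in 11 of 50 and 1 of 21 (7.86-fold, 1.26 to 325). CTSH, which encodes cathepsin H, was among the 10 named genes with the highest ratio, with a log2 ratio of 3.94. DNMT1, RBM3, GSPT1 and SPOCK2 were also among those 10, at log2 ratios of 3.44, 3.75, 3.49 and 3.23. HBG, a haemoglobin gene, was also among them, with 34 UMIs in 4 CD3E+ members and 1 UMI in the CD3E- members, and its log2 ratio of 3.67 was 2.63 without 1 cell.

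A small set of CD3E+ members carried type 17 cytokine transcripts. IL17A or IL17F was found in 5 of 11 CD3E+ members of calf 2, 6 of 50 of calf 3 and 0 of 21 CD3E- members, against 13 of 89 CTSW- CD3E+ cells. IL17F stood at 14.5 per 10000 in CD3E+ members of calf 2 (11 to 18.7) and 3.38 in those of calf 3 (2.54 to 4.41). Against the floor of 3 counts, it was at least 6.74-fold higher in CD3E+ than in CD3E- members of calf 3, a log2 bound of 2.75 that was 2.00 without 1 cell. IL17A, with 21 of its 28 UMIs in 1 cell, was the other gene of the type 17 list with 20 UMIs, and no bound past 1 was left without that cell. Of the 6 IL17 cells of calf 3, 1 had CCL5 and 2 had CD8A or CD8B. In calf 2 no CD3E+ member had CCL5, so its 5 IL17 cells say nothing of a relation to that gene. In calf 3, 12 of 50 CD3E+ members had none of CD8A, CD8B, CD4, IL17A and IL17F.

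**Figure D4:**
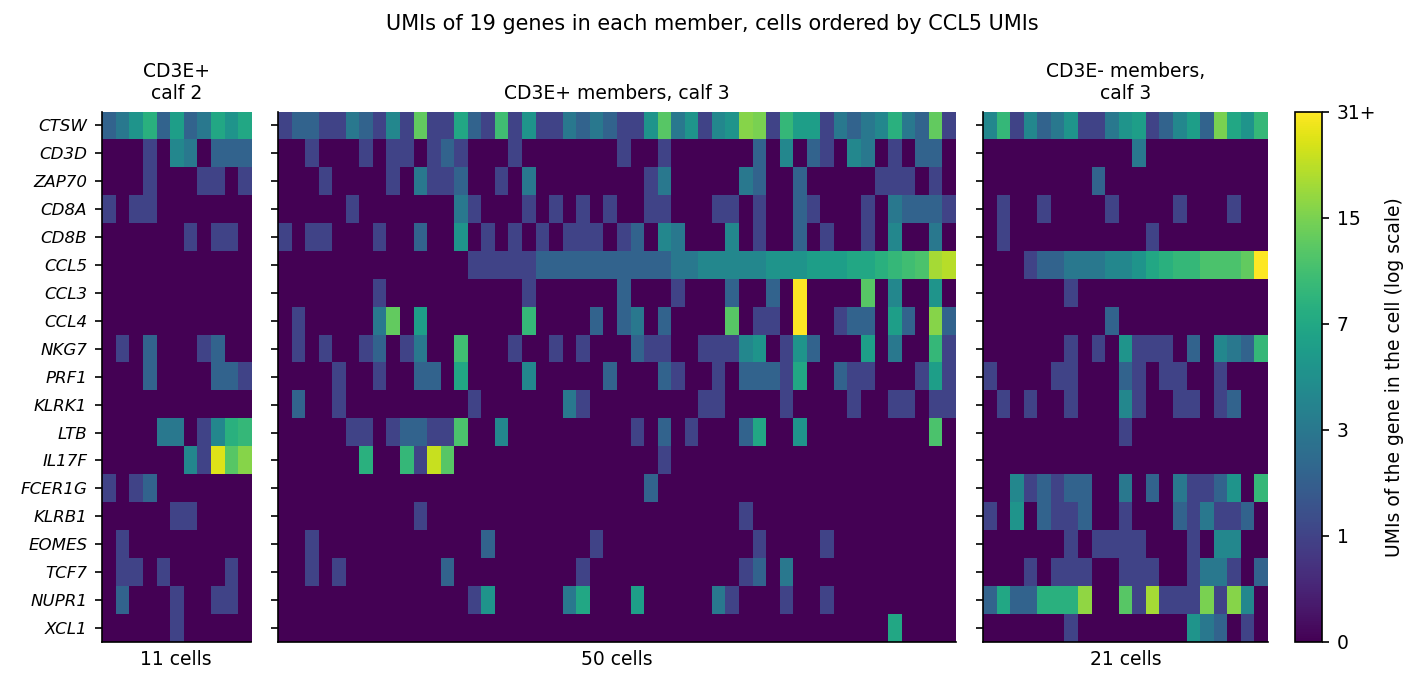
UMIs of each gene (y axis) in each of the 82 members (x axis, 1 column per cell, ordered by CCL5 within each block), with colour giving the UMI count on a log scale; blocks are CD3E+ members of calf 2, CD3E+ members of calf 3 and CD3E- members of calf 3. IL17F lies in 5 cells of calf 2, where no cell has CCL5, and in 6 of calf 3, 1 of them with CCL5, CCL3 reaches 86 UMIs in 1 cell, and FCER1G, KLRB1 and NUPR1 lie mostly in the right block.

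Against CTSW- CD3E+ cells of the same calf, the CD3E+ members carried more of the cytotoxic genes. Of 2967 genes with at least 20 UMIs, 101 (3.4%) were at least 2-fold higher and 348 (11.7%) at least 2-fold lower in CD3E+ members, with a median log2 ratio of -0.10. Also without the cell with most UMIs of the gene, 59 (1.99%) stayed higher and 250 (8.43%) lower. Genes reached 20 UMIs mainly through the CTSW- sum, which held more UMIs (331173 against 159854). With no minimum of UMIs, about as many called genes were higher as lower, as the closing section gives. All 4 markers (CCL5, NKG7, KLRK1 and CD8A) were higher, with a median log2 ratio of 2.08. As they had been named together with CTSW from cells of the same study, this count is not independent support. Also higher were 4 of 8 granule genes (PRF1, GNLY, CST7 and 1 GZMB gene), 4 of 7 NK receptor genes (NKG7, KLRK1, CRTAM and HCST) and 5 of 8 cytokine genes (CCL5, CCL3, CCL4, IFNG and TNF) that reached 20 UMIs. No gene of these 4 lists was lower. NKG7, KLRK1 and CCL5 were each counted in more than 1 of them. Without the cell with most UMIs of the gene, the log2 ratio of CST7 was 0.74, under the limit, and the other genes of these counts stayed past 2-fold.

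The single genes behind these counts were as follows. CCL5 was found in 36 of 50 CD3E+ members and 19 of 89 CTSW- CD3E+ cells (21.3%), at 11 against 2.35 per 10000. It was 4.67-fold higher (3.56 to 6.18), a log2 ratio of 2.22 that was 1.66 when CTSW- cells with the TRDC homolog were left out. PRF1 was 6.77-fold higher (3.73 to 13), and CRTAM, an adhesion receptor of activated cytotoxic cells, was 7.25-fold higher (3.51 to 16.4). CD8A was 4.83-fold higher (2.38 to 10.4) and CD8B 5.57-fold (3.07 to 10.6). In cells of at most 5000 UMIs the log2 ratios of PRF1, CD8A and CD8B were 2.04, 1.61 and 1.72, against 2.76, 2.27 and 2.48 in all cells. With CTSW- cells that carried the TRDC homolog left out, CD8A was at 1.59. NKG7 was 3.85-fold higher (2.51 to 5.98). Its log2 ratio of 1.94 was 1.16 in cells of at most 5000 UMIs and 2.69 without the TRDC homolog in the comparison cells. A UMI of CD8A or CD8B was found in 34 of 50 CD3E+ members and 15 of 89 CTSW- CD3E+ cells (16.9%).

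CCL3, GNLY and CXCL14 headed the list by ratio and rested largely on single cells. The log2 ratios were 5.10 for CCL3, 4.81 for GNLY and 3.69 for CCL4, and without the cell with most UMIs of each they were 3.19, 3.28 and 2.70. GNLY was at 1.83 with a keratin sum under 30 admitted. All 23 CXCL14 UMIs came from 1 CD3E+ member. Levels at least 2-fold higher that were spread over more cells were those of CD69, an early activation and retention receptor, in 32 of 50 against 40 of 89 (2.51-fold, 1.85 to 3.42), and CD96, in 21 of 50 against 19 of 89 (3.6-fold, 2.11 to 6.30). IL7R, the interleukin 7 receptor, was found in 46 of 50 against 70 of 89 cells (2.22-fold, 1.86 to 2.65), and its log2 ratio of 1.15 was 0.97 without the cell with most of its UMIs. Of the 5 genes with 20 UMIs of the innate lymphoid list, IL7R was the one called higher, and IL1R1, a receptor for interleukin 1, and IL22 were lower at -1.34 and -3.41, beside 3.4% higher and 11.7% lower over all genes. Without 1 cell each, IL1R1 was at -1.14 and IL22 at -0.97, since 18 of the 22 IL22 UMIs of the CTSW- cells lay in 1 cell. Of the 4 genes of the type 17 list, IL17F was lower as well, at -1.30 and at -0.57 without 1 cell, and none was higher. Of the 12 transcription factors, HOPX and ZBTB16 were higher at 1.16 and 1.36, HOPX at 0.96 without 1 cell, and ID3 was lower. Of the 13 residence and homing genes, CD69 was higher and S1PR1 was among those lower, at -3.70 and at -2.90 without 1 cell.

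Of the 6 coreceptor and helper genes with 20 UMIs, CD4 and CTLA4 were lower in CD3E+ members than in CTSW- CD3E+ cells. CD8A and CD8B were higher, beside 3.4% higher and 11.7% lower over all genes. ICOS and IL2RA had log2 ratios of -0.09 and 0.01. CD4 was found in 1 of 50 and 17 of 89 cells (13-fold lower, 2.15 to 534), CTLA4, an inhibitory receptor, also in 1 of 50 and 17 of 89 (20.3-fold lower, 3.45 to 820), and ID3, a transcription factor, in 2 of 50 and 21 of 89 (10.9-fold lower, 3.59 to 54.4). The CTLA4 log2 ratio of -4.34 was -2.56 in cells of at most 5000 UMIs. Of the proliferation genes, 6 of 9 with 20 UMIs were lower and none was higher, beside 11.7% lower over all genes. Without 1 CTSW- cell each, CENPF was at -0.68 against -1.29 and PCNA at -0.91 against -1.10, which left 4 of 9 lower, beside 8.43% over all genes. TOP2A, the topoisomerase of dividing cells, was found in 0 of 50 against 9 of 89 cells, at least 6.60-fold lower against the floor of 3 counts, a log2 bound of -2.72 that was -2.01 in cells of at most 5000 UMIs. MKI67 or TOP2A was found in 6 of 50, 1 of 21 and 13 of 89 cells of the 3 groups. The proliferation list summed to 9.76 per 10000 (8.29 to 11.4) in CD3E+ members and 20.05 (18.55 to 21.63) in CTSW- CD3E+ cells of calf 3. It summed to 28.5 (23.5 to 34.2) in CD3E+ members of calf 2, so a low level was not common to both calves. BLK and SOX4 were lower as well, at log2 ratios of -2.09 and -2.41, beside 11.7% lower over all genes. They were the 2 genes with 20 UMIs of the γδ list, which does not include the TRDC homolog. The CTSW- group was not restricted for that homolog, and 59 of its 89 cells of calf 3 had no UMI of it. Members lacked it by the rule, so lower γδ genes in members could follow from the choice of cells. Of the T cell signalling list, CD96 was higher and no gene was lower among 11, beside 3.4% higher and 11.7% lower over all genes. Of the receptor complex CD247 was lower at -1.10, which was -0.98 without 1 cell.

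The 10 lowest genes in that comparison also held genes of other cell types. CD74, the class II invariant chain, and SPARC and IGFBP7, which stromal and endothelial cells secrete, had log2 ratios of -4.80, -4.01 and -3.95. CLEC3B, with no UMI in CD3E+ members, was found in 4 of 89 CTSW- CD3E+ cells, 1 of which held 53 of its 121 UMIs. It was at least 19.5-fold lower against the floor, a log2 bound of -4.28 that was -3.48 without that cell. RHEX, SWAP70, HES1, UBE2C and SLC9A3R2 were the other genes of the 10 beside CTLA4, at -5.29 to -3.83. Endothelial and fibroblast markers summed to 5.68 per 10000 in CTSW- CD3E+ cells, 1.94 in CD3E+ and 3.01 in CD3E- members of calf 3, and 10 of the 10 measured had a UMI in the CTSW- cells, with SPARC the most abundant (100 UMIs). An endothelial marker was found in 4 of 50, 1 of 21 and 15 of 89 cells. Myeloid markers summed to 7.85 in CTSW- CD3E+ cells, 1.63 in CD3E+ and 2.84 in CD3E- members, with CST3 the most abundant in each. Single CTSW- cells held 102 of 115 CD74 UMIs and 80 of 120 CST3 UMIs. Without that cell the CD74 log2 ratio was -1.68, and without its own top cell SLC9A3R2 was at -2.95 against -3.83. CST3 was called lower in CD3E+ members at a log2 ratio of -1.46, which was 0.09 without that cell. The part of these cell types in the ratios was not tested.

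CD3E- members differed from CTSW- CD3E+ cells in several NK cell genes and several T cell genes, mostly in opposite directions. Of 2462 genes with at least 20 UMIs, 125 (5.08%) were at least 2-fold higher and 556 (22.6%) at least 2-fold lower in CD3E- members, with a median log2 ratio of -0.34. Also without the cell with most UMIs of the gene, 71 (2.88%) stayed higher and 468 (19%) lower. Genes reached 20 UMIs mainly through the CTSW- sum, which held more UMIs (331173 against 59848). With no minimum of UMIs, most called genes were higher in CD3E- members, as the closing section gives. Of the NK receptor list, 6 of 7 genes (NKG7, KLRK1, KLRB1, FCER1G, HCST and IL2RB) were higher and none lower, and IL2RB was at 0.81 without 1 cell against 1.18 with it. KLRB1 was found in 1 of 89 CTSW- CD3E+ cells and its log2 ratio was 6.99, a 127-fold difference with an interval of 20.7 to 5243 that rests on 1 UMI. FCER1G, also in 1 of 89, was 105-fold higher (27.2 to 900), and its log2 ratio of 6.72 was 5.38 in cells of at most 5000 UMIs. With CTSW- cells that carried the TRDC homolog left out, FCER1G was at 5.45 and KLRB1 at 6.31. NUPR1 was 32.9-fold higher (20.6 to 55.1), CCL5 9.72-fold (7.31 to 13) and KLRK1 7.99-fold (3.16 to 21.2). TCF7 was 3.76-fold higher (1.91 to 7.25) and HOPX, a homeodomain protein of effector lymphocytes, 3.44-fold (2.16 to 5.42). They were the 2 of 10 transcription factors called higher, and 3 were lower, ID3 at a log2 ratio of -2.03, GATA3 at -2.08 and IKZF2 at -1.34, the last with an interval that spans 1. All 5 calls held without the cell with most UMIs of the gene. The 10 highest genes were KLRB1, FCER1G, NUPR1, CCL5 and KLRK1 with SPRY2, RETREG1, MAP3K8 and UGCG, at log2 ratios of 3.39, 3.28, 3.00 and 2.92, and the unnamed ENSBTAG00000009943, at 5.39.

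In the same comparison, 6 of 11 T cell signalling genes were lower, among them CD5, CD27, ZAP70, LAT and SIT1, and CD96 was higher, beside 22.6% lower and 5.08% higher over all genes. Both genes of the receptor complex, CD3D and CD247, were lower, as were ICOS and CTLA4 of 4 coreceptor and helper genes, and CTLA4, with no UMI in CD3E- members, had a log2 bound of -1.34 that was -0.96 without 1 cell. CD3D was 6.69-fold lower (2.23 to 32.9), ZAP70 7.41-fold (1.99 to 62.2) and LAT 6.24-fold (1.66 to 52.5). With a keratin sum under 30 admitted, the log2 ratio of CD3D was -1.59 against -2.74 and that of ZAP70 -1.87 against -2.89. The LAT log2 ratio of -2.64 was -0.98 with cells thinned to 1000 UMIs, under the limit, and ZAP70 was at -1.73 without CTSW- cells that carried the TRDC homolog. LTB was 10.7-fold lower (1.84 to 428), and IL17F at least 16.6-fold lower against the floor of 3 counts, a log2 bound of -4.06 that was -3.32 without 1 cell and -2.50 with cells thinned to 1000 UMIs. CCL4 and IFNG were called lower on 2 UMIs each in CD3E- members, with intervals that span 1, and without 1 CTSW- cell each they were at -0.14 and -0.54. Of the 7 cytokine genes, CCL5 and TNF were higher, and LTB was the third called lower. PRF1 was the 1 of 3 granule genes that was higher, at 1.73. Of the 13 residence genes, CD69 was higher at 2.05 and S1PR1 lower at -2.29, or -1.48 without 1 cell, and of the 5 innate lymphoid genes KIT was higher and IL1R1 and LTB were lower, with KIT at 0.73 without 1 cell against 1.18. Of the proliferation genes, 5 of 8 (MKI67, TOP2A, CENPF, UBE2C and STMN1) were lower and none higher, beside 22.6% lower over all genes, and TOP2A was at -0.86 without 1 cell against -1.30 with it. HBG, with 271 UMIs in 7 CTSW- cells and 155 of them in 1 cell, had the lowest ratio at -5.61, and TFPI2, CAV1, CLEC3B and SLC9A3R2, at -3.58 to -3.41, stood beside SPOCK2 (-4.16), SYNE2 (-3.76) and CTSH (-3.36). Without the cell with most UMIs of each gene, HBG was at -4.41, TFPI2, CAV1, CLEC3B and SLC9A3R2 at -2.65 to -2.32, and SYNE2 at -3.16.

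The TRDC homolog itself was unevenly placed among CTSW+ lymphocytes, and the next values describe the split that the rule made. In calf 3, 7 of 57 CTSW+ cells with CD3E carried the homolog (12.3%), against 25 of 46 lymphocytes with CTSW and without CD3E (54.3%). Over all calves these shares were 8 of 69 (11.6%, 5.14 to 21.6) and 29 of 50 (58.0%, 43.2 to 71.8). Conversely, CD3E was found in 50 of 71 members of calf 3 (70.4%, 58.4 to 80.7) and in 7 of 32 CTSW+ cells with the homolog (21.9%). Most cells with CTSW and the homolog therefore had no CD3E UMI.

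The CTSW+ cells with the homolog and without CD3E were then set beside the CD3E- members in genes the rule had not used. Of these 25 cells of calf 3, 21 had FCER1G or KLRB1 (84.0%), 23 had at least 1 of the 5 NK genes (92%), 20 had CCL5, 6 had at least 1 of CD3D, CD3G, ZAP70 and LAT (24.0%) and 3 had CD8A or CD8B. The matching shares of CD3E- members, 76.2%, 95.2%, 85.7%, 14.3% and 28.6% in the same order, had exact 95% intervals that overlapped these. At least 1 gene of the whole NK receptor list was found in 32 of 32 CTSW+ cells of calf 3 with the homolog. It was found in 20 of 21 CD3E- members, 43 of 50 CD3E+ members and 62 of 89 CTSW- CD3E+ cells. TCF7 and FCER1G occurred together in 11 of the 25, in 11 of 21 CD3E- members and in 0 of 50 CD3E+ members. The 7 cells with both CD3E and the homolog had a T cell gene of that set in 6 and FCER1G or KLRB1 in 2. Over all CTSW+ cells of calf 3 with the homolog, FCER1G stood at 6.35, CCL5 at 26.4, NUPR1 at 11.7 and TCF7 at 3.23 per 10000, beside 6.35, 22.9, 20.9 and 2.84 in CD3E- members.

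**Figure D5:**
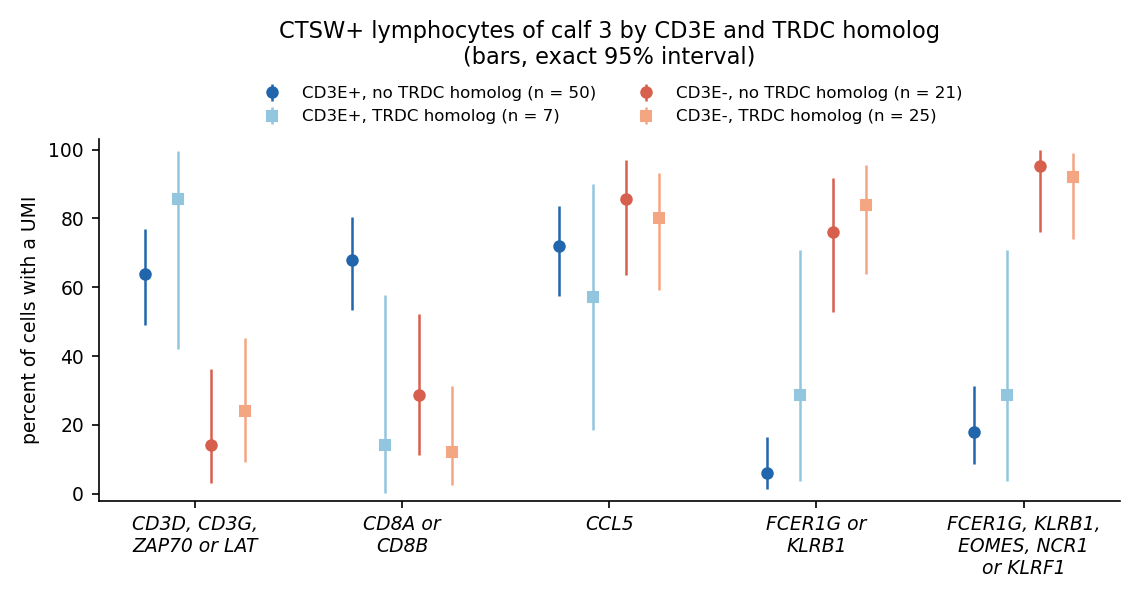
Percent of CTSW+ lymphocytes of calf 3 with a UMI of each gene or gene set (x axis) by CD3E (blue with, red without) and TRDC homolog (circles without, squares with), with exact 95% intervals. FCER1G or KLRB1 was found in 76.2% and 84.0% of cells without CD3E and in 6% of CD3E+ cells without the homolog.

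CTSW was in turn common among CD3E+ cells without the homolog. It was found in 11 of 11 such cells of calf 2 (71.5 to 100%) and in 50 of 109 of calf 3 (45.9%, 36.3 to 55.7). This share describes the rule gene and is not a comparison with an independent measure.

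Genes of tissue residence were present in members and comparison cells alike. RGS1, a G-protein regulator of resident lymphocytes, was found in 10 of 11 CD3E+ members of calf 2, 49 of 50 of calf 3, 21 of 21 CD3E- members and 81 of 89 CTSW- CD3E+ cells. CXCR4, the receptor for CXCL12, was found in 11 of 11, 45 of 50, 18 of 21 and 75 of 89. CXCR6 was found in 27 of 50 CD3E+ and 6 of 21 CD3E- members (2.20-fold, 1.03 to 5.39), and ITGAE, the integrin of intraepithelial lymphocytes, in 4 of 50 and 1 of 21. Of 9 residence and homing genes with 20 UMIs in the comparison of CD3E+ with CD3E- members, ITGB7, ITGAL and CXCR6 were higher and GPR183 was lower, beside 19.2% higher and 4.86% lower over all genes. Without 1 cell each, the log2 ratios of ITGB7, ITGAL and CXCR6 were 0.90, 0.97 and 0.99 against 1.02, 1.06 and 1.14, so that GPR183 was the one gene of the list past 2-fold, at -1.16 against -1.34. S1PR1, a receptor for exit from tissue, was found in 1 of 50, 1 of 21 and 6 of 89 cells.

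Immediate-early and heat-shock genes, which dissociation can induce, were high in all groups of calf 3. They summed to 154.5 per 10000 in CD3E+ members, 172.4 in CD3E- members and 149.6 in CTSW- CD3E+ cells of calf 3, and to 115.9 in CD3E+ members of calf 2. Of 15 such genes with 20 UMIs, DUSP1 was higher and JUNB lower in CD3E+ than in CD3E- members, at log2 ratios of 1.46 and -1.01, beside 19.2% higher and 4.86% lower over all genes, and without 1 cell JUNB was at -0.95, under the limit. In CD3E- members against CTSW- CD3E+ cells, NR4A1 was higher and DUSP1 lower among 15, beside 5.08% higher and 22.6% lower over all genes. In CD3E+ members against CTSW- CD3E+ cells none passed 2-fold.

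Genes of other cell types were counted in members as well. B and plasma cell markers summed to 0, 0.188 and 0.334 per 10000 in CD3E+ members of calves 2 and 3 and CD3E- members. Epithelial markers outside the keratins of the rule summed to 4.17, 1.81 and 1.67, against 2.72 in CTSW- CD3E+ cells, with S100A2 the most abundant in CD3E+ members and PERP in CD3E- members. Mast cell markers in members were almost entirely KIT, which innate lymphoid cells also carry, at 0.491, 0.876 and 1.50, and the 4 measured genes of the red cell list had no UMI in any of these groups. That list did not hold HBG, whose level was 7.12 in CD3E+ members of calf 2 (28 of 29 UMIs in 1 cell), 2.13 in those of calf 3, 0.167 in CD3E- members and 8.18 in CTSW- CD3E+ cells. Of the innate lymphoid list, IL7R was the most abundant gene in members of calf 3, in 46 of 50 CD3E+ and 14 of 21 CD3E- members.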

How the data were processed

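Each calf gave 1 single-cell library (Chromium Single Cell 3′ kit v3) of dissociated rumen wall. The authors counted UMIs per gene with Cell Ranger 3.1.0 on ARS-UCD1.2, and the deposited values are raw UMI counts for 27270 genes. The authors' own cell annotation was not used here, so the groups were rebuilt from single genes. The study stated that doublets were removed in its own analysis. The deposited matrices still held barcodes outside its limits on genes. A score against simulated doublets (0.8% per 1000 barcodes) marked 3.91, 8.52 and 8.39% of kept barcodes, which were retained.

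Cells were kept and grouped by the rule given at the start, with the members and the 20 gene lists (248 genes, 224 matched by name) chosen with earlier results of these data known. UMIs were summed per calf and group and scaled to 10000. Genes of the rule stayed in the totals and out of the comparisons. The planned edgeR test needed at least 2 calves with at least 3 cells in every group. Only calf 3 had them, so no test was run and values are given. Shares have exact Clopper-Pearson 95% intervals, levels exact Poisson intervals and ratios exact conditional binomial intervals. A count of 0 was set to a floor of 3 counts over the group. The genes named are those of the lists and, per comparison, the 10 highest and 10 lowest ratios. The ratio step was tested on simulated data. Python 3.11.15, numpy 2.4.6, scipy 1.17.1, pandas 2.3.3 and scikit-learn 1.9.0 were used. Alternatives were other limits for members, thinning of cells to 1000 or 2000 UMIs, other count minimums, other scaling and leaving out cells, and the closing section gives their effect.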

Additional observations from a re-analysis of the deposited data

How the results depend on the processing

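No paired analysis and no test was run. Only calf 3 held all 3 groups. Calf 2 held 11 CD3E+ members but 1 CTSW- CD3E+ cell, under the minimum of 3 cells. For the same reason DESeq2, edgeR with DESeq2 size factors, a fit without the calf as block, and the comparisons without calf 3 were not run. Admitting calves with at least 1 cell in every group added none. The number of members was 45 with the keratin sum under 5 per 10000, 61 with at least 2 CTSW UMIs, 104 with the keratin sum under 30 (chosen after seeing the data) and 115 with no keratin limit, and 82 with marked doublets removed. Leaving out each calf in turn gave 11 to 82 members and a mean share of 0.0516 to 0.390%, and 11 was the number without calf 3.

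The counts of genes past 2-fold depended on depth. For CD3E+ against CD3E- members, CD3E+ members against CTSW- CD3E+ cells and CD3E- members against CTSW- CD3E+ cells, the counts of 302, 449 and 681 were 160, 221 and 447 with at least 30 UMIs, 49, 98 and 138 with cells thinned to 1000 UMIs, 120, 279 and 385 in cells of at most 5000 UMIs, and 2152, 2470 and 2095 with no minimum. They were 205, 309 and 539 without the cell with most UMIs of each gene, an alternative chosen after the data were seen. The percent of called genes that were higher in the group named first, 79.8, 22.5 and 18.4, was 33.2, 51.5 and 58.8 with no minimum. For the comparison of CD3E+ with CD3E- members it was 68.3 in cells of at most 5000 UMIs. Scaling by the median of ratios, added after the data were seen, shifted the median log2 ratio by 0.20, 0.04 and -0.15. For 35 log2 ratios of genes named for a difference, 417 values were recomputed over the alternatives that could give one, of which 396 lay within the interval, 21 lay outside it and 0 changed sign. These genes were chosen for a difference and many of the intervals were wide, so this count is a weak check. The 2-fold calls of CD3D, LAT and CCL5, for example, ended under some alternatives, as given above. Over 335 ratios of all named and listed genes, leaving out the cell with most UMIs of the gene changed the sign of 43, of which 2 (CST3 and CXCL3, both against CTSW- CD3E+ cells) had been past 2-fold. Among the others were NKG7 (-0.30 to 0.11), RGS1 (-0.18 to 0.08), CD96 (-0.18 to 0.10) and TNF (-0.15 to 0.13) in CD3E+ against CD3E- members. Thinned to 1000 UMIs, CD3D was found in 12.0% and CD8B in 24.0% of CD3E+ members of calf 3, and FCER1G in 38.1% and KLRB1 in 28.6% of CD3E- members, against 38.0, 46.0, 66.7 and 61.9% of cells not thinned, and CD3D was found in 32.6% of those thinned to 2000. The cause of these shifts was not tested beyond the lower counts that thinning and higher minimums leave. A single calf and at most 89 cells a group limit every ratio.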
